A study of Mus musculus with 12 samples.

Results

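The enzymes and factors that write, keep and remove DNA methylation were followed in mouse epiblast-like cells as they met a WNT signal with different amounts of SOX2. The set holds 10 genes chosen by name: Dnmt1, Dnmt3a, Dnmt3l, Uhrf1, Tet1, Tet2, Tet3, Tdg, Zfp57 and Trim28. They are 10 of the 24736 genes in the RNA-seq table, and all 10 were among the 14196 genes that had enough counts to be tested. Only RNA was measured here, and neither the proteins nor DNA methylation itself was assayed.

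DNA methylation in mammals sits mostly on the cytosine of CG dinucleotides. The DNMT3 enzymes place it on unmethylated DNA, while DNMT1, guided by UHRF1, copies it onto the new strand after replication. TET enzymes oxidize the methyl group, and the glycosylase TDG cuts out the oxidized base so that repair restores a plain cytosine. ZFP57 and its partner TRIM28 (also called KAP1) hold methylation at imprinted loci when the rest of the genome is remodelled. The passage from naive to post-implantation epiblast is known for a genome-wide gain of methylation, in which Dnmt3a and Dnmt3b act as the writers and DNMT3L, which has no catalytic activity of its own, as their cofactor.

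RNA was sequenced from 12 cultures of differentiating ES cells at 72 h, in 4 groups with 3 biological replicates each. All cultures were kept in FGF at 10 ng/ml and LGK974 at 5 µM, which blocks WNT secretion. EpiLC cultures (epiblast-like cells) were wild type and received nothing more, and CEpiLC cultures (caudal epiblast-like cells) were wild type and received the GSK3 inhibitor CHIR99021, which turns on WNT signalling, from day 2 to day 3. SOX2-OFF and SOX2-ON cultures also had CHIR99021 over that day, but their cells were of another line, SOX2 TetON. Its own Sox2 gene was disrupted, and doxycycline switches on a Sox2 transgene placed at Hprt. By the paper's account, the wild type was HM1 TetON, the parent from which SOX2 TetON was made. The rtTA gene at Rosa26 was already in that parent, so it does not separate the lines. Doxycycline was withdrawn in SOX2-OFF and kept at 1 µg/ml in SOX2-ON. The SOX2 TetON line was picked as edited clones, and there was no culture of it without CHIR99021. A difference between these groups and EpiLC or CEpiLC therefore cannot be told apart from a difference between the lines. SOX2-ON against SOX2-OFF was a comparison within the line, in which doxycycline differed together with SOX2.

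Library totals ran from 10408252 to 27337740 expected counts. Mean Sox2 levels were high in EpiLC at 137 TPM (a level scaled to library size and transcript length) and in SOX2-ON at 187, and low in CEpiLC at 10.4 and in SOX2-OFF at 16.5. SOX2-OFF was thus not free of Sox2 reads, and its Sox2 RNA was higher than in wild-type CEpiLC (log2 0.65, adjusted p = 0.0367), although their TPM ranges overlapped. Gene-level counts do not part reads of the edited Sox2 locus from those of the transgene, so they do not give the level of functional Sox2. The streak marker T averaged 0.550, 711, 809 and 152 TPM in the same order. Pou5f1, which marks pluripotent and epiblast cells, lay between 843 and 1075 TPM in the 4 group means. In the comparisons of the SOX2 TetON line with wild type, the median difference over the genes of chromosomes 6, 8 and 11 stood away from 0. For SOX2-OFF over CEpiLC these medians were 0.57, 0.62 and -0.52 on the log2 scale, and for SOX2-ON over CEpiLC they were 0.57, 0.59 and -0.55. Of the 10 genes only Tet3 lies on one of these chromosomes (chromosome 6). The medians of the other members' chromosomes were between -0.05 and 0.071 in all 6 comparisons.

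The 10 genes differed far more in level from one another than most of them did between groups. Trim28 was the most abundant, with group means of 526 to 631 TPM, followed by Uhrf1 at 180 to 216 TPM and Dnmt1 at 123 to 128 TPM. Tdg, Dnmt3a and Zfp57 had group means between 25.3 and 59.4 TPM, Tet1 and Tet3 between 12.02 and 19.3 TPM, and Tet2 between 1.72 and 3.31 TPM. Dnmt3l ranged from 5.69 TPM in CEpiLC to 79.4 TPM in SOX2-ON. The span between the lowest and the highest group mean, in log2 CPM, was 3.74 for Dnmt3l, 0.95 for Dnmt3a, 0.90 for Tet2 and 0.79 for Zfp57. It was 0.68 for Tet1, 0.64 for Tdg and 0.42 for Tet3. Trim28, Uhrf1 and Dnmt1 spanned 0.26, 0.21 and 0.095.

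**Figure D1:**
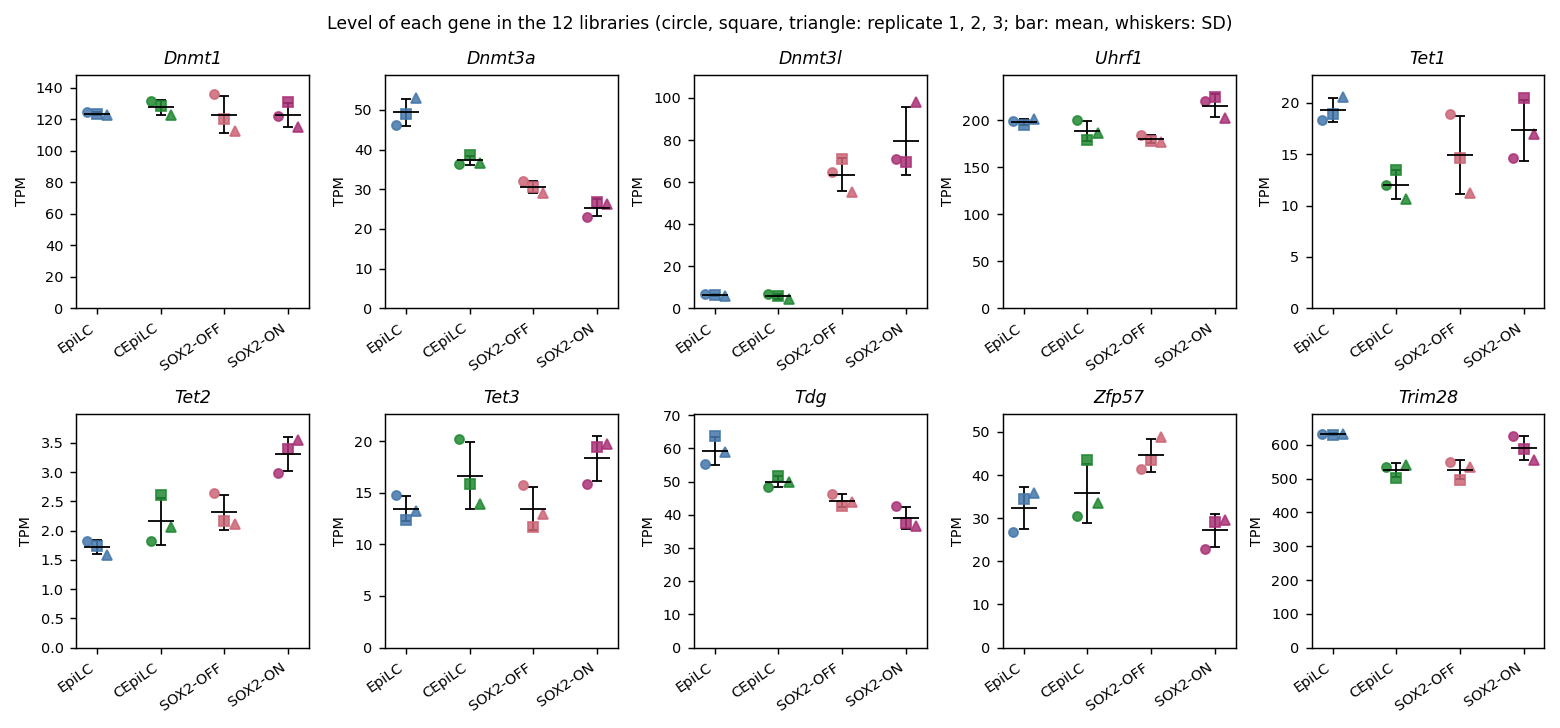
Level in TPM of each of the 10 genes in the 12 libraries (y axis from 0, one panel per gene), by group on the x axis, with the mean and SD of the 3 replicates. Dnmt3l lies at 4.37 to 6.95 TPM in the 6 wild-type libraries and at 55.2 to 98.2 TPM in the 6 SOX2 TetON libraries, while Dnmt1 overlaps between all groups.

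Genes were called by the quasi-likelihood test of edgeR at an adjusted p of at most 0.05, adjusted by the Benjamini-Hochberg method over the 14196 genes. In CEpiLC over EpiLC 4 of the 10 genes were called, 0 higher and 4 lower, where 42.2% of all genes tested were called (22.1% higher and 20.1% lower). In SOX2-OFF over CEpiLC 2 were called, 1 in each direction, against 48.5% of all genes (23.6% higher, 24.9% lower). In SOX2-ON over CEpiLC 7 were called, 4 higher and 3 lower, against 56.5% of all genes (27.9% higher, 28.6% lower). Within the SOX2 TetON line, SOX2-ON over SOX2-OFF gave 6 calls, 3 in each direction, against 28.8% of all genes (14.8% higher, 14.1% lower). SOX2-OFF over EpiLC gave 6 calls, 3 in each direction, against 62.1% (31.5% higher, 30.6% lower). SOX2-ON over EpiLC gave 5, with 3 higher and 2 lower, against 59.8% (30.7% higher, 29.1% lower). Only Dnmt3l among them passed an absolute log2 fold change of 1, and did so upwards in the 4 comparisons of the line with wild type. Of all genes tested, 5.68% rose by as much in SOX2-OFF over CEpiLC, 7.86% in SOX2-ON over CEpiLC, 10.7% in SOX2-OFF over EpiLC and 9.61% in SOX2-ON over EpiLC. The median log2 fold change of the 10 genes was between -0.10 and 0.14 over the 6 comparisons, and that of all genes between -0.013 and 0.015.

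The count within the line changed when single libraries were left out, which lowers the power of the test for every gene. Its calls of Dnmt3a and Zfp57 held under all 14 alternatives. The count fell from 6 to 3 without SOX2-OFF replicate 2 or 3 or without SOX2-ON replicate 3, and to 2 without SOX2-ON replicate 2. The TPM levels of SOX2-ON and SOX2-OFF did not overlap for 6 of the 10 genes and for 43.5% of all genes tested. In CEpiLC over EpiLC the levels of 4 of the 10 did not overlap (52.1% of all genes), in SOX2-OFF over CEpiLC 3 (55.2%) and in SOX2-ON over CEpiLC 8 (59.5%). Against EpiLC it was 7 for SOX2-OFF (68.7%) and 7 for SOX2-ON (65.7%).

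**Figure D2:**
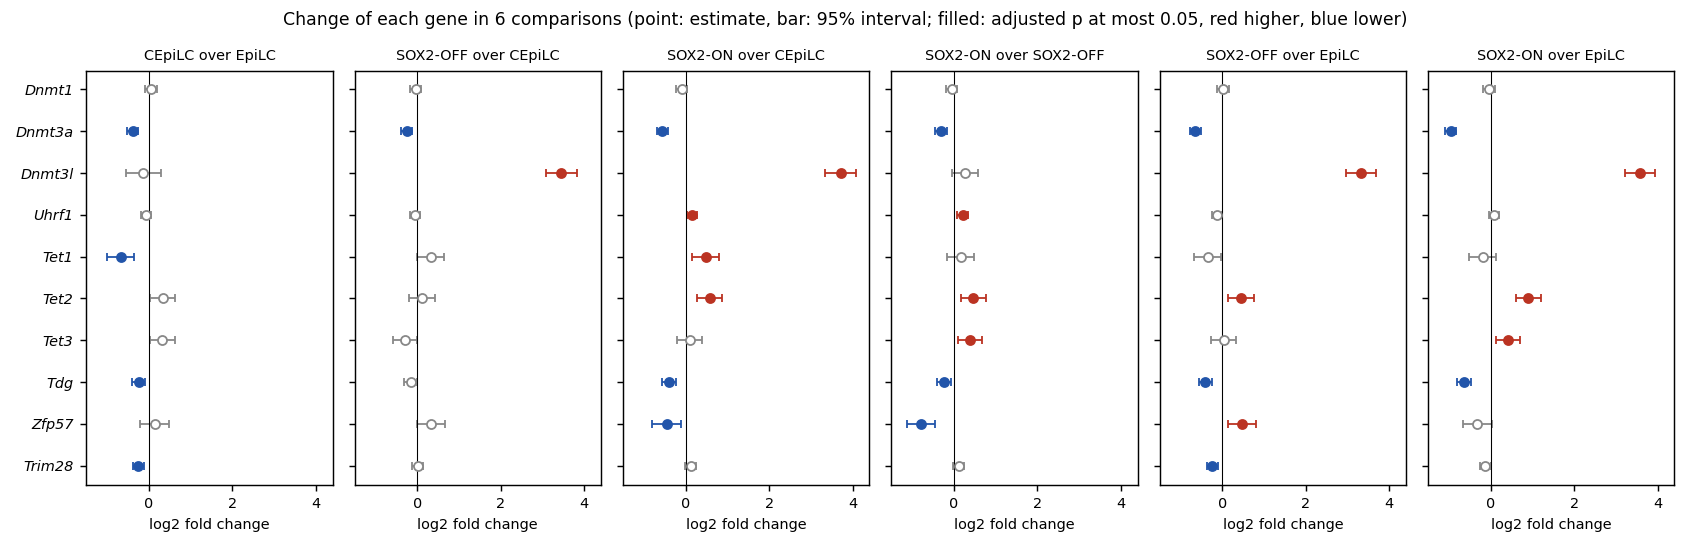
Log2 fold change of each gene (y axis) in the 6 comparisons (panels), with 95% intervals, filled where the adjusted p was at most 0.05 (red higher, blue lower). Dnmt3l stands at 3.32 to 3.71 in the 4 comparisons of the SOX2 TetON line with wild type, Dnmt3a is lower in all 6 comparisons, and Dnmt1 is called in 0.

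The 4 genes whose levels spanned the groups most widely start in regions of very different CG content, shown here because CG is the sequence that DNA methylation marks. Each line gives the 250 bases upstream of one annotated RefSeq start in GRCm38.p6 (the assembly also named mm10), 5′ to 3′ on the gene's strand, with each CG in capitals.
Dnmt3l (chr10:78042037-78042286, plus strand): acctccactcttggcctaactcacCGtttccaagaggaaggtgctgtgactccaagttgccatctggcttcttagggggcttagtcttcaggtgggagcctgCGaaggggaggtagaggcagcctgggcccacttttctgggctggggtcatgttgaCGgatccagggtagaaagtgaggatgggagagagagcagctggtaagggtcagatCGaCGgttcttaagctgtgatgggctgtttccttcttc
Dnmt3a (chr12:3806910-3807159, plus strand): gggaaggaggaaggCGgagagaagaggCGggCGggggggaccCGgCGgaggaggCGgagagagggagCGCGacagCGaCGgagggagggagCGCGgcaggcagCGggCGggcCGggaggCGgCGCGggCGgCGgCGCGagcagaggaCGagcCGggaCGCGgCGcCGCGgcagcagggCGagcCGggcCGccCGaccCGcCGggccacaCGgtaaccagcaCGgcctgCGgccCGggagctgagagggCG
Tet2 (chr3:133544391-133544640, minus strand): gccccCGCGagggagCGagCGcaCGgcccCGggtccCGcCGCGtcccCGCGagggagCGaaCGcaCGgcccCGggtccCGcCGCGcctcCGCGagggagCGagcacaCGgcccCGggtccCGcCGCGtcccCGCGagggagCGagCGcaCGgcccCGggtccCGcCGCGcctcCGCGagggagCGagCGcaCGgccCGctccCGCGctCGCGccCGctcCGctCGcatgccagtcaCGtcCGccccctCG
Zfp57 (chr17:37000913-37001162, plus strand): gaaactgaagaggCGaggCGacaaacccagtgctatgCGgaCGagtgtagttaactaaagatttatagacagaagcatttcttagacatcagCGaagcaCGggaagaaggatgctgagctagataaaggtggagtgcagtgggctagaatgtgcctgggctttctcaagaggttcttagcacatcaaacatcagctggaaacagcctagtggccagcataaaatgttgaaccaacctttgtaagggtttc
The stretch upstream of the first Dnmt3l start held 5 CG and that of Zfp57 held 6, against 40 upstream of one Dnmt3a start and 51 upstream of Tet2. Over the 32851 such windows of all genes the median was 6, with quartiles of 2 and 16. The other annotated starts of Dnmt3l had 4 and 3 CG and those of Zfp57 had 7 and 3. The other starts of Dnmt3a had 38 and 15 CG. Which start was used in these cells cannot be read from gene-level counts. The letters CTTTGAT (TCF/LEF) and ACAATG (SOX), searched on both strands, were in 0 of the 19 windows of the 10 genes and in 3.21% and 10.7% of the windows of all genes.

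Dnmt1, the maintenance methyltransferase (chr9:20907206-20959888), was level across the groups. It stood at 125, 124 and 123 TPM in the EpiLC libraries and at 132, 128 and 123 in CEpiLC. In SOX2-OFF the values were 136, 120 and 113 TPM, and in SOX2-ON they were 122, 131 and 115. Every pair of groups overlapped. The log2 fold changes ran from -0.094 to 0.052, and the 6 intervals of 95% reached no further than -0.23 and 0.19. Dnmt1 was called in 0 of the 6 comparisons by edgeR, and 0 had an unadjusted p under 0.05.

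Uhrf1 (chr17:56303337-56323486), whose product brings DNMT1 to newly replicated DNA, was nearly as even but highest in SOX2-ON. EpiLC libraries were at 200, 195 and 201 TPM, CEpiLC at 200, 179 and 187, SOX2-OFF at 185, 178 and 177, and SOX2-ON at 221, 224 and 202. The 3 SOX2-ON libraries were above every other library. Uhrf1 rose by 0.21 in SOX2-ON over SOX2-OFF on the log2 scale (SE 0.058, adjusted p = 0.0167). It rose by 0.16 over CEpiLC (SE 0.058, adjusted p = 0.0347). SOX2-ON over EpiLC gave 0.084 (adjusted p = 0.234), and 0.15 without SOX2-ON replicate 3 (adjusted p = 0.0423). SOX2-OFF over EpiLC gave -0.13 (adjusted p = 0.0783) and was called under 3 of 14 alternatives, namely library size alone (0.0304), only the 6 compared libraries (0.0269) and chromosome medians removed (0.0379). These were small changes, and the call over CEpiLC was lost under 7 of 14 alternatives, among them scaling by library size alone (adjusted p = 0.0715). Leaving out CEpiLC replicate 2 or 3 gave adjusted p = 0.141 and 0.0637, and leaving out SOX2-ON replicate 1 or 2 gave 0.119 and 0.104. The call over SOX2-OFF was lost without SOX2-OFF replicate 2 (adjusted p = 0.059) and without SOX2-ON replicate 1 (0.0658) or 2 (0.0617).

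Genes of S phase were also counted. Over 16 of them the summed level of EpiLC libraries was 2363 to 2415 TPM, that of CEpiLC 2120 to 2279, that of SOX2-OFF 2175 to 2265 and that of SOX2-ON 2114 to 2346. In SOX2-ON over SOX2-OFF 0 of the 16 rose and 4 fell (14.8% and 14.1% of all genes), with a median of -0.052. In SOX2-ON over CEpiLC 3 rose and 7 fell (27.9% and 28.6% of all genes). The part of S phase in the level of Uhrf1 was not tested.

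Dnmt3a (chr12:3801559-3914443), a de novo methyltransferase, was lower at each step from EpiLC through CEpiLC and SOX2-OFF to SOX2-ON. EpiLC libraries had 46.3, 48.9 and 53.0 TPM, CEpiLC had 36.4, 38.7 and 36.7, SOX2-OFF had 32.1, 30.6 and 29.2, and SOX2-ON had 22.9, 26.7 and 26.4. The 4 groups did not overlap at any point of this order. Dnmt3a fell by 0.39 on the log2 scale in CEpiLC over EpiLC (SE 0.061, adjusted p = 0.000223). It fell by 0.25 in SOX2-OFF over CEpiLC (SE 0.061, adjusted p = 0.00438) and by 0.31 in SOX2-ON over SOX2-OFF (SE 0.062, adjusted p = 0.00218). Between the ends of the order, SOX2-ON was 1.93-fold below EpiLC (log2 -0.95, SE 0.062, adjusted p = 5.68e-08). All 6 comparisons of Dnmt3a kept their direction and their call under the 14 alternatives tried for each, and the largest adjusted p for SOX2-OFF over CEpiLC was 0.0214.

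Dnmt3l (chr10:78042287-78063622) was low in both wild-type groups and high in both groups of the SOX2 TetON line. Its levels were 6.95, 6.41 and 5.97 TPM in EpiLC and 6.88, 5.82 and 4.37 in CEpiLC. In SOX2-OFF it was at 64.6, 71.0 and 55.2 TPM, and in SOX2-ON at 70.8, 69.4 and 98.2. The lowest library of the SOX2 TetON line was thus far above the highest wild-type library, whereas EpiLC overlapped with CEpiLC and SOX2-OFF with SOX2-ON. These levels rested on 37 to 151 counts in the 6 wild-type libraries and on 492 to 1311 in the other 6.

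Dnmt3l rose 10.9-fold in SOX2-OFF over CEpiLC (log2 3.45, SE 0.17, adjusted p = 3.45e-08) and 13.1-fold in SOX2-ON over CEpiLC (log2 3.71, SE 0.17, adjusted p = 8.54e-09). Over EpiLC the log2 fold changes were 3.32 for SOX2-OFF and 3.58 for SOX2-ON. CEpiLC over EpiLC gave -0.13 (95% interval -0.55 to 0.28, adjusted p = 0.615). Within the line, SOX2-ON over SOX2-OFF gave 0.26 (95% interval -0.039 to 0.57, adjusted p = 0.181). Over the 14 alternatives the rise in SOX2-OFF over CEpiLC stayed between 3.34 and 3.64, and that in SOX2-ON over CEpiLC between 3.55 and 3.90. The median over the genes of chromosome 10 in these comparisons was 0.067 and 0.032.

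Genes of other cell states also differed between the lines. Dnmt3l is known to be high in naive ES cells and germ cells. The summed level of 11 genes of naive pluripotency ran from 43.9 to 48.7 TPM across EpiLC libraries, from 67.3 to 90.5 across CEpiLC, from 157 to 206 across SOX2-OFF and from 423 to 473 across SOX2-ON. Of the 10 that were tested, 6 rose and 0 fell in SOX2-OFF over CEpiLC (23.6% and 24.9% of all genes). In SOX2-ON over CEpiLC 10 rose and 0 fell (27.9% and 28.6%). The list moved within the lines too, where Dnmt3l was not called. In SOX2-ON over SOX2-OFF 6 rose and 0 fell (14.8% and 14.1%), and in CEpiLC over EpiLC 5 rose and 1 fell (22.1% and 20.1%). Prdm14 stayed at or under 0.51 TPM in every library.

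A list of 12 extraembryonic endoderm genes summed to 239 to 243 TPM across EpiLC libraries, 173 to 270 across CEpiLC, 709 to 891 across SOX2-OFF and 401 to 924 across SOX2-ON. Most of each sum was Apoe, which averaged 230, 221, 467 and 379 TPM in the same order. In EpiLC 10 of the 12 genes averaged under 1 TPM. Of the 10 listed genes that were tested, 9 rose and 0 fell in SOX2-OFF over CEpiLC (23.6% and 24.9% of all genes). In SOX2-ON over CEpiLC 9 rose and 0 fell (27.9% and 28.6%). Gata6, a regulator of primitive endoderm, was at most 1.38 TPM in wild-type libraries and at 19.5 to 69.7 in the line, whereas Afp, a product of mature visceral endoderm, was at most 0.17 TPM in all 12. In SOX2-ON over SOX2-OFF 1 of the 10 rose and 4 fell (14.8% and 14.1% of all genes), while Dnmt3l was not called. Over all 12 libraries, SOX2-ON replicate 3 was the highest for Dnmt3l (98.2 TPM) and for Gata6 (69.7 TPM). Cubn was highest in SOX2-OFF replicate 1 (100.1 TPM against 77.4 in SOX2-ON replicate 3). Sox17 and Ttr were highest in SOX2-OFF replicate 2 (16.62 and 2.96 TPM, against 16.15 and 1.94 in SOX2-ON replicate 3). Among the SOX2-ON libraries alone, replicate 3 was the highest for Dnmt3l and for Gata6, Cubn, Sox17 and Ttr. Cubn, for one, was at 24.0, 34.2 and 77.4 TPM in replicates 1, 2 and 3. Among the SOX2-OFF libraries, replicate 2 was the highest for Dnmt3l, Gata6, Sox17 and Ttr, and replicate 1 for Cubn. The 7 fibroblast feeder genes summed to 38.2 to 83.0 TPM in wild-type libraries and 18.2 to 41.4 in the line, a difference that lay mostly in Thy1 (28.0 and 42.1 TPM in the wild-type means, 8.31 and 9.34 in the line). Of the 7, 1 rose and 1 fell in SOX2-OFF over CEpiLC (23.6% and 24.9% of all genes). In SOX2-ON over CEpiLC 2 rose and 1 fell (27.9% and 28.6%). What part any of these cells or states had in the level of Dnmt3l was not tested, and in bulk RNA a change in the share of cells cannot be told apart from a change in RNA per cell.

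The genes most like Dnmt3l over the 12 libraries were sought among 8107 well-expressed genes by Pearson's r of log2 CPM. They were Cenpt (r = 0.995), a kinetochore protein gene, Tigar (0.994), a fructose bisphosphatase gene, and Tcf25 (0.994). The 12 points fall into 2 clusters, 1 per line, so r here describes the step between the lines. Cenpt averaged 30.7 and 29.0 TPM in wild type (EpiLC, then CEpiLC) and 56.3 and 63.6 in the line (SOX2-OFF, then SOX2-ON), a much smaller step than that of Dnmt3l. In the same order Tigar averaged 18.9, 18.9, 43.7 and 53.9 TPM. Tcf25 averaged 126, 123, 225 and 227 TPM. Cenpt and Tcf25 lie on chromosome 8 and Tigar on chromosome 6, 2 of the 3 chromosomes whose medians differed between the lines.

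The balance within the DNMT3 family differed between the lines for Dnmt3l, and it also changed within wild type, from EpiLC to CEpiLC. Dnmt3l over Dnmt3a in TPM was 0.131 ± 0.0188 (SD, n = 3) in EpiLC and 0.153 ± 0.0350 in CEpiLC. It was 2.07 ± 0.221 in SOX2-OFF and 3.14 ± 0.566 in SOX2-ON. Dnmt3b, the other de novo methyltransferase and not one of the 10 genes, averaged 1354 ± 152 TPM over EpiLC libraries, 145 ± 32.3 over CEpiLC, 131 ± 12.2 over SOX2-OFF and 222 ± 36.4 over SOX2-ON. It fell 9.33-fold in CEpiLC over EpiLC (log2 -3.22, SE 0.16, adjusted p = 1.17e-08), while Dnmt3a fell 1.31-fold in the same comparison. Of the summed TPM of the 3 genes, Dnmt3b had 96.0% and 76.7% in wild type (EpiLC, then CEpiLC) and 58.2% and 67.7% in the line (SOX2-OFF, then SOX2-ON). In the same order Dnmt3l had 0.463%, 3.02%, 28.2% and 24.6%. The share of Dnmt3a was 3.52%, 20.3%, 13.7% and 7.77%, so it was highest in CEpiLC, where its own level had already fallen.

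**Figure D3:**
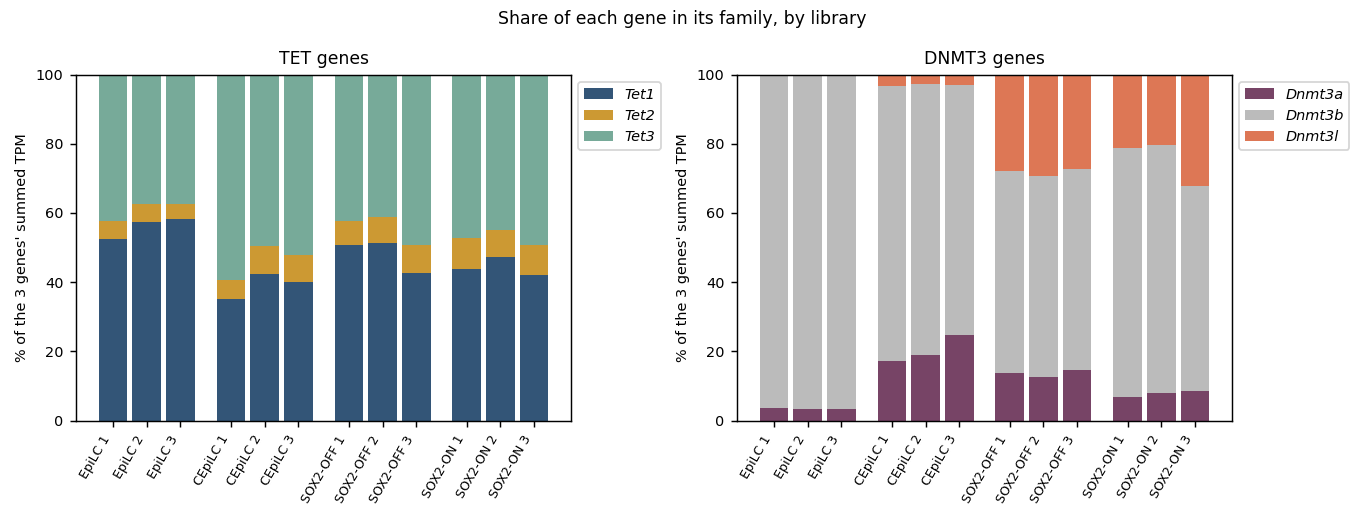
Share of each gene in the summed TPM of its family (y axis, %) in each of the 12 libraries, for the TET genes (left) and the DNMT3 genes (right). Dnmt3b makes up 96.0% of the DNMT3 transcripts in EpiLC on average, Dnmt3l 28.2% in SOX2-OFF, and Tet1 falls from 55.9% of the TET transcripts in EpiLC to 39.1% in CEpiLC.

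Tet1 (chr10:62804570-62887469), an oxidizing enzyme known from ES cells, was lowest in CEpiLC. It was at 18.3, 19.0 and 20.6 TPM in EpiLC and at 11.95, 13.5 and 10.6 in CEpiLC, with no overlap. In SOX2-OFF the libraries were spread from 11.2 to 18.9 TPM (18.9, 14.6 and 11.2), and in SOX2-ON they were at 14.6, 20.5 and 16.9. Tet1 fell by 0.67 on the log2 scale in CEpiLC over EpiLC (SE 0.15, adjusted p = 0.00313), a 1.59-fold fall that was called under all 14 alternatives. It was higher by 0.48 in SOX2-ON over CEpiLC (SE 0.15, adjusted p = 0.0151). That call was lost without CEpiLC replicate 3 (adjusted p = 0.0504) and without SOX2-ON replicate 2 (0.0761). SOX2-OFF over EpiLC gave -0.35 (SE 0.15, adjusted p = 0.0558), which lay so near the threshold that 8 of 14 alternatives called it, with adjusted p = 0.00489 without SOX2-OFF replicate 1. SOX2-OFF over CEpiLC gave 0.32 (adjusted p = 0.0999), or 0.48 without SOX2-OFF replicate 3 (adjusted p = 0.0104). SOX2-ON did not differ detectably from EpiLC (log2 -0.19, 95% interval -0.51 to 0.13) or from SOX2-OFF (0.16, interval -0.16 to 0.49).

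Tet2 (chr3:133463677-133545136) was the least abundant of the 10 genes in every group. EpiLC libraries were at 1.83, 1.74 and 1.59 TPM, CEpiLC at 1.82, 2.60 and 2.06, SOX2-OFF at 2.65, 2.17 and 2.11, and SOX2-ON at 2.98, 3.40 and 3.54. Every SOX2-ON library was above all others. Tet2 rose 1.87-fold in SOX2-ON over EpiLC (log2 0.91, SE 0.14, adjusted p = 9.99e-05) and 1.49-fold over CEpiLC (log2 0.58, SE 0.14, adjusted p = 0.00307), and both calls held under their 14 alternatives. SOX2-ON over SOX2-OFF gave 0.47 (SE 0.14, adjusted p = 0.0231). That call was lost without SOX2-OFF replicate 2 or 3 (adjusted p = 0.0891 and 0.0782) and without SOX2-ON replicate 2 or 3 (0.0637 and 0.0652). SOX2-OFF over EpiLC gave 0.44 (SE 0.14, adjusted p = 0.0168), lost without EpiLC replicate 3 (0.0604) or SOX2-OFF replicate 1 (0.0825). CEpiLC over EpiLC gave 0.33 (adjusted p = 0.0833), and 0.45 without CEpiLC replicate 1 (adjusted p = 0.030).

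Tet3 (chr6:83362373-83457208) is the third oxidizing enzyme of the family. EpiLC libraries had 14.8, 12.4 and 13.2 TPM, CEpiLC had 20.2, 15.8 and 13.9, SOX2-OFF had 15.7, 11.7 and 12.96, and SOX2-ON had 15.8, 19.4 and 19.8. Only SOX2-ON was clear of EpiLC and SOX2-OFF, by a narrow margin. Tet3 rose by 0.42 on the log2 scale in SOX2-ON over EpiLC (SE 0.13, adjusted p = 0.016), a call lost without EpiLC replicate 2 (0.0677) or SOX2-ON replicate 3 (0.0505). It rose by 0.39 over SOX2-OFF (SE 0.13, adjusted p = 0.0463), lost without SOX2-OFF replicate 2 or 3 (0.186 and 0.109) and without SOX2-ON replicate 2 or 3 (0.124 and 0.122). CEpiLC over EpiLC gave 0.32 (adjusted p = 0.0685), and with the replicate number as a block it was called (0.32, adjusted p = 0.0468). Without CEpiLC replicate 3 it was 0.43 (adjusted p = 0.0232).

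For Tet3 the comparisons across lines depended on the reference. Genes of chromosome 6 had a median log2 difference of 0.57 in SOX2-OFF over CEpiLC, 0.57 in SOX2-ON over CEpiLC, and 0.59 in both comparisons with EpiLC. Relative to all genes, Tet3 was at -0.29 in SOX2-OFF over CEpiLC (adjusted p = 0.0899) and at 0.094 in SOX2-ON over CEpiLC (adjusted p = 0.572). Relative to the median of its chromosome it was lower, at -0.86 (adjusted p = 0.000274) and -0.47 (adjusted p = 0.0103). Against EpiLC the same step turned 0.031 into -0.56 for SOX2-OFF (adjusted p = 0.00313) and 0.42 into -0.18 for SOX2-ON (adjusted p = 0.287). In SOX2-ON over SOX2-OFF, where the chromosome's median was -0.017, the value of Tet3 did not turn. Without CEpiLC replicate 3 or SOX2-OFF replicate 1, SOX2-OFF over CEpiLC was called relative to all genes as well (-0.40, adjusted p = 0.0274, and -0.41, adjusted p = 0.0385).

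**Figure D4:**
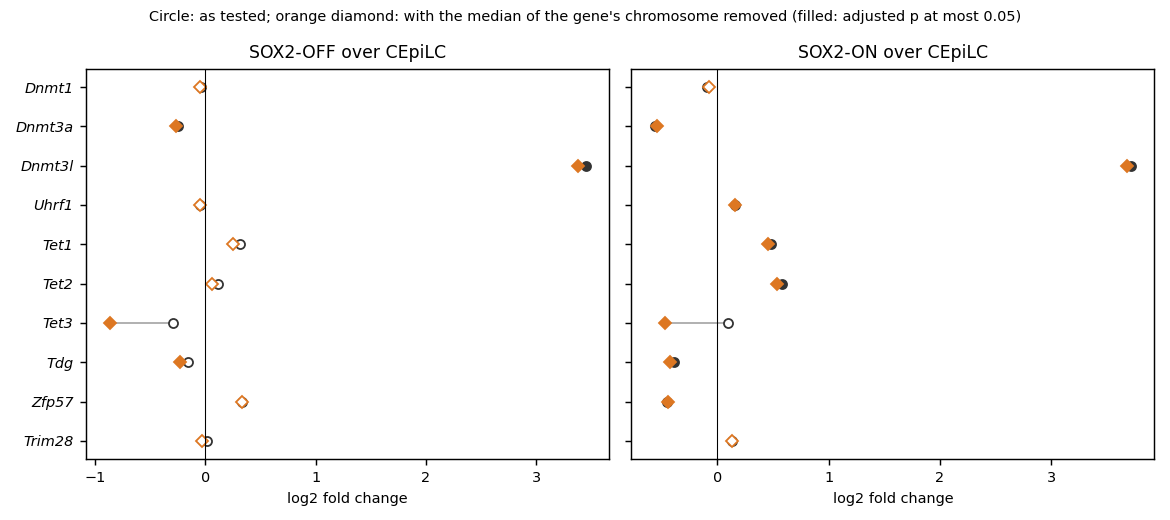
Log2 fold change (x axis) of each gene in SOX2-OFF over CEpiLC (left) and SOX2-ON over CEpiLC (right), relative to all genes (circles) and with the median of its own chromosome removed (diamonds), filled where the adjusted p was at most 0.05. Tet3 moves from -0.29 to -0.86 and from 0.094 to -0.47, and the other 9 genes stay near their first value.

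The summed level of the 3 TET genes averaged 34.5 ± 1.20 TPM over EpiLC libraries, 30.8 ± 3.798 over CEpiLC, 30.7 ± 5.79 over SOX2-OFF and 38.9 ± 5.05 over SOX2-ON (SD, n = 3). The balance within it changed in CEpiLC, where Tet1 over Tet3 was 0.736 ± 0.132 against 1.44 ± 0.180 in EpiLC. It was 1.10 ± 0.209 in SOX2-OFF and 0.945 ± 0.101 in SOX2-ON. Tet3 was thus above Tet1 in all 3 CEpiLC libraries and below it in all 3 EpiLC libraries. Ratios and shares that cross the lines carry the difference of chromosome 6 described for Tet3, whose median was 0.57 to 0.59 higher in the line.

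Tdg (chr10:82629814-82650799), the glycosylase that follows the TET enzymes, was highest in EpiLC and lowest in SOX2-ON. EpiLC libraries were at 55.4, 63.8 and 58.8 TPM, CEpiLC at 48.3, 51.6 and 49.9, SOX2-OFF at 46.3, 42.6 and 44.0, and SOX2-ON at 42.7, 37.6 and 36.5. EpiLC stood above all other libraries, while SOX2-OFF and SOX2-ON just overlapped. Tdg fell by 0.24 on the log2 scale in CEpiLC over EpiLC (SE 0.074, adjusted p = 0.0182), a call lost without EpiLC replicate 2 (0.0878) or CEpiLC replicate 1 (0.0586). It fell by 0.39 in SOX2-ON over CEpiLC (SE 0.075, adjusted p = 0.000598) and by 0.64 in SOX2-ON over EpiLC (SE 0.074, adjusted p = 8.95e-06). In SOX2-OFF over EpiLC it fell by 0.40 (adjusted p = 0.000394), and SOX2-OFF over CEpiLC gave -0.16 (adjusted p = 0.0956). The fall of 0.23 in SOX2-ON over SOX2-OFF (adjusted p = 0.0332) was lost under 7 of 14 alternatives, with adjusted p of 0.096, 0.0812, 0.113 and 0.111 without SOX2-OFF replicate 1 or 3 or SOX2-ON replicate 2 or 3. Tdg has processed pseudogenes that share its reads, so its values are uncertain to the extent that RSEM divided reads among them.

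Zfp57 (chr17:37001163-37010729), the zinc-finger protein of imprinted loci, was highest in SOX2-OFF and lowest in SOX2-ON. EpiLC libraries had 26.9, 34.6 and 35.9 TPM, CEpiLC had 30.5, 43.5 and 33.4, SOX2-OFF had 41.5, 43.5 and 48.9, and SOX2-ON had 22.8, 29.1 and 29.7. SOX2-ON lay below both SOX2-OFF and CEpiLC without overlap. Within the line Zfp57 was 1.72-fold lower in SOX2-ON than in SOX2-OFF (log2 -0.78, SE 0.16, adjusted p = 0.00232), and this call held under all 14 alternatives. Uhrf1, Tet2 and Tet3 had the opposite sign in that comparison. SOX2-OFF over EpiLC gave 0.47 (SE 0.16, adjusted p = 0.0188), lost without EpiLC replicate 1 (0.0905) or SOX2-OFF replicate 3 (0.0698). SOX2-ON over CEpiLC gave -0.45 (SE 0.16, adjusted p = 0.0267), lost without CEpiLC replicate 2 (0.158) or SOX2-ON replicate 1 (0.11). CEpiLC over EpiLC gave 0.14 (adjusted p = 0.519). SOX2-OFF over CEpiLC gave 0.33 (adjusted p = 0.0951), or 0.53 without CEpiLC replicate 2 (adjusted p = 0.00913), and SOX2-ON over EpiLC gave -0.32 (adjusted p = 0.102), or -0.44 without EpiLC replicate 1 (adjusted p = 0.0385).

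Trim28 (chr7:13024152-13031032), the corepressor that KRAB zinc-finger proteins such as ZFP57 recruit, was at 633, 628 and 633 TPM in EpiLC and at 535, 503 and 540 in CEpiLC. It was at 550, 496 and 534 TPM in SOX2-OFF and at 626, 588 and 556 in SOX2-ON. EpiLC was above every other library. Trim28 fell by 0.26 on the log2 scale in CEpiLC over EpiLC (SE 0.061, adjusted p = 0.00458) and by 0.24 in SOX2-OFF over EpiLC (SE 0.061, adjusted p = 0.004), both called under all 14 alternatives. The values for SOX2-ON lay between, at -0.13 over EpiLC (adjusted p = 0.0894) and 0.13 over CEpiLC (adjusted p = 0.087). Without SOX2-ON replicate 1 the first was called (-0.18, adjusted p = 0.0185), and without SOX2-ON replicate 3 the second was called (0.19, adjusted p = 0.0198). Trim28 and Zfp57 did not share an order of groups.

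Around the 10 genes, 57 others of the same pathways were counted, and all 57 were tested. They hold other writers and maintenance factors, erasure and base excision repair, readers of methylated CpG, partners of KRAB zinc-finger silencing and the metabolism of the methyl donor and cofactors. In CEpiLC over EpiLC 6 rose and 18 fell (22.1% and 20.1% of all genes tested), with a median of -0.11. In SOX2-OFF over CEpiLC 16 rose and 14 fell (23.6% and 24.9% of all genes), and in SOX2-ON over CEpiLC 22 rose and 17 fell (27.9% and 28.6%). In SOX2-ON over SOX2-OFF 10 rose and 6 fell (14.8% and 14.1%). In SOX2-OFF over EpiLC 15 rose and 18 fell (31.5% and 30.6%), and in SOX2-ON over EpiLC 19 rose and 17 fell (30.7% and 29.1%). Of the 10 partners of KRAB zinc-finger silencing, 0 rose and 5 fell in CEpiLC over EpiLC (22.1% and 20.1% of all genes), with a median of -0.20. In SOX2-OFF over EpiLC 2 rose and 3 fell (31.5% and 30.6%), with a median of -0.061. Trim28 fell in both comparisons, and a link between it and these partners was not tested. The partners gave 3 rises and 1 fall in SOX2-OFF over CEpiLC (23.6% and 24.9%) and the same in SOX2-ON over CEpiLC (27.9% and 28.6%). In SOX2-ON over SOX2-OFF 1 rose and 0 fell (14.8% and 14.1%), and in SOX2-ON over EpiLC 3 rose and 3 fell (30.7% and 29.1%).

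Among these 57, the largest changes were in a few genes. Dppa3, whose product keeps UHRF1 from its place on chromatin, averaged 2.30 TPM over EpiLC libraries, 4 over CEpiLC, 6.26 over SOX2-OFF and 123 over SOX2-ON. It rose 17.9-fold in SOX2-ON over SOX2-OFF (log2 4.16, SE 0.28, adjusted p = 4.26e-07). Gadd45a, linked to DNA repair and demethylation, averaged 31.4, 16.6, 36.3 and 135 TPM in the same order. It fell by 0.92 on the log2 scale in CEpiLC over EpiLC (adjusted p = 0.000619) and rose by 1.84 in SOX2-ON over SOX2-OFF (adjusted p = 2.47e-06). Both genes lie on chromosome 6 and kept their direction in these 2 comparisons, at 4.18 for Dppa3 and at -0.94 and 1.86 for Gadd45a, relative to the median of that chromosome.

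Gadd45b, a relative of Gadd45a, was highest in SOX2-OFF with 15.9 TPM, against 3.67 to 4.58 in the other group means, and fell by 2.16 on the log2 scale in SOX2-ON over SOX2-OFF (adjusted p = 0.000797). Cxxc5, a CXXC zinc-finger gene known as a WNT target, rose 2.01-fold in CEpiLC over EpiLC (adjusted p = 2.32e-05) and fell by 0.90 on the log2 scale in SOX2-ON over SOX2-OFF (adjusted p = 0.000119). Uhrf2, the paralogue of Uhrf1, rose 1.86-fold in CEpiLC over EpiLC (adjusted p = 4.78e-07), from 58.2 to 108 TPM, while Uhrf1 gave -0.073 (adjusted p = 0.338). Smug1, a base excision glycosylase gene, fell by 0.66 in SOX2-ON over CEpiLC (adjusted p = 0.00106).

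Cbx1 and Mat2b, for a chromatin reader and a subunit of the methyl donor synthase, fell by 0.80 and 0.71 on the log2 scale in SOX2-OFF over CEpiLC. Both lie on chromosome 11. Relative to that chromosome's median the values were -0.28 (adjusted p = 0.000977) and -0.20 (adjusted p = 0.0356).

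A list of 14 germline genes that DNA methylation is known to silence in somatic cells was read beside these enzymes, and 10 of them were tested. In CEpiLC over EpiLC 0 rose and 4 fell (22.1% and 20.1% of all genes), with a median of -0.33. In SOX2-OFF over CEpiLC 5 rose and 1 fell (23.6% and 24.9%), with a median of 0.71, and in SOX2-ON over CEpiLC 8 rose and 1 fell (27.9% and 28.6%), with a median of 2.33. In SOX2-ON over SOX2-OFF 5 rose and 1 fell (14.8% and 14.1%), with a median of 1.06. Over EpiLC, SOX2-OFF had 3 that rose and 2 that fell (31.5% and 30.6%), close to the share of all genes, and SOX2-ON had 8 that rose and 1 that fell (30.7% and 29.1%). Most were at low levels throughout. Ddx4, an RNA helicase gene of germ cells, averaged 5.46 and 5.24 TPM in wild type (EpiLC, then CEpiLC) and 9.47 and 22.9 in the line (SOX2-OFF, then SOX2-ON). In the same order Rpl10l averaged 0.357, 0.470, 1.83 and 5.04 TPM, and Stk31 averaged 0.760, 0.583, 1.20 and 3.60 TPM. Sycp3, a gene of the meiotic chromosome axis and the most abundant of the list, went the other way, with 96.3, 50.8, 27.8 and 15.8 TPM. Of the 10 naive pluripotency genes tested, 5 rose and 1 fell in CEpiLC over EpiLC, 6 rose in SOX2-OFF over CEpiLC, 10 rose in SOX2-ON over CEpiLC and 6 rose in SOX2-ON over SOX2-OFF. Their part in the germline levels was not tested. The germline counts and levels carry any chromosome-wide difference between the lines, since chromosome medians were not removed for them.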

How the data were processed

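RNA from 12 cultures was sequenced as strand-specific libraries. The authors trimmed reads with cutadapt 1.16, aligned them with STAR 2.5.2a to mm10 and quantified RefSeq genes with RSEM 1.3.0. The deposited table holds expected counts, estimates that may be fractional where a read fits several genes, and TPM values, also made by the authors with RSEM. Of the values in a library 2.59 to 3.43% were not whole. Replicates were not pooled.

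Expected counts were rounded. Genes passing filterByExpr (14196 of 24736) were tested in 1 edgeR quasi-likelihood model of the 12 libraries (edgeR 4.0.16, limma 3.58.1, R 4.3.3) with TMM scaling (factors 0.97 to 1.02), Benjamini-Hochberg adjustment over all of them and a threshold of 0.05. The study used DESeq2, run here (version 1.42.0) as an alternative. SEs come from the F statistic. TPM served for levels, overlap, ratios, family shares and summed lists, and not for the tests. The test recovered changes in simulated counts. Reads carry no molecular identifiers.

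Groups come from the labels. The labels call the replicates biological. No pair of replicates was a repeat of 1 library, with chi-square per degree of freedom of 7.35 or more. Same-numbered EpiLC and CEpiLC libraries deviated together across genes (r = 0.120, 0.132 and 0.103), judged from the values alone. The main test did not pair them, and a block for the replicate number was run only as an alternative. Other comparisons had at least 1 correlation under 0.1.

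The 10 genes, gene lists and alternatives were chosen with earlier results of these data known. All 10 genes are described. Of the 57 pathway genes, at most 4 called genes with the largest change and an average of 2 log2 CPM or more are drawn on per comparison. For genes whose group means span at least 1 log2 CPM, the 3 most correlated genes averaging 4 log2 CPM or more are named. Germline, endoderm and naive examples were picked after their values were seen. Positions and upstream windows are those of RefSeq in GRCm38.p6. Alternatives were RLE scaling, library size alone, no filter, DESeq2, limma-voom, a fit of the 6 libraries at hand, a block for the replicate number, removal of each chromosome's median, and each library left out in turn.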

Additional observations from a re-analysis of the deposited data

How the results depend on the processing

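Of the values of the 10 genes under these alternatives, 755 kept direction and side of the threshold, 37 lost the call, 28 gained one and 20 turned sign. Every call of Dnmt3a and Dnmt3l was among the first. In SOX2-OFF over CEpiLC the count of called genes went from 2 to 4 with library size alone and to 4 with chromosome medians removed, which added Tet3 and Tdg both times. In SOX2-ON over SOX2-OFF it ran from 2 to 5 with 1 library left out. With library size alone Trim28 turned to -0.032 in SOX2-OFF over CEpiLC and Dnmt1 to -0.020 in SOX2-OFF over EpiLC. With chromosome medians removed these were -0.034 and -0.025, and Tet3 turned to -0.47 in SOX2-ON over CEpiLC, -0.56 in SOX2-OFF over EpiLC and -0.18 in SOX2-ON over EpiLC. Other turns came with 1 library left out, all of values without a call: Zfp57 in CEpiLC over EpiLC (-0.063 to 0.26), Uhrf1 (-0.098 to 0.0060), Dnmt1 (-0.11 to 0.0098) and Trim28 (-0.024 to 0.069) in SOX2-OFF over CEpiLC, Tet3 in SOX2-ON over CEpiLC (-0.0093 to 0.27), Dnmt1 in SOX2-ON over SOX2-OFF (-0.10 to 0.012), Dnmt1 (-0.052 to 0.064) and Tet3 (-0.083 to 0.14) in SOX2-OFF over EpiLC, and Dnmt1 in SOX2-ON over EpiLC (-0.081 to 0.017). Except where given, the cause was not tested. The share of all genes called under each alternative is not given here. Calls gained or lost under an alternative are therefore not read as a trait of the 10 genes. With the replicate number as a block the called members were 5 in CEpiLC over EpiLC, where Tet3 was added, 3 in SOX2-OFF over CEpiLC (Zfp57 added at 0.34, adjusted p = 0.0158), 7 in SOX2-ON over CEpiLC, 6 in SOX2-ON over SOX2-OFF, 7 in SOX2-OFF over EpiLC (Tet1 added at -0.36, 0.0432) and 6 in SOX2-ON over EpiLC (Zfp57 added at -0.32, 0.02). Whether same-numbered libraries outside CEpiLC over EpiLC share more than a number cannot be told from the labels. For replicates 2 and 3 the deviations correlated at 0.179 and 0.173 in SOX2-OFF over CEpiLC and at 0.201 and 0.163 in SOX2-ON over CEpiLC. All 6 libraries correlated best with their own number in these 2 comparisons and in SOX2-ON over SOX2-OFF. Groups of 3 limit what can be seen for Tet2 and for Dnmt3l in wild type, which had few counts.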
